A study of Homo sapiens with 18 samples.

Results

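The 10 genes described here encode the kinases of the DNA damage checkpoint and the mediator proteins that bring those kinases to damaged DNA. They are ATM, ATR, ATRIP, CHEK1, CHEK2, WEE1, CLSPN, TOPBP1, MDC1 and TP53BP1. They were chosen by symbol and function, with earlier results of these data known, and all 10 were found by Entrez identifier in the RNA-seq table of 18475 genes. The table holds 18 libraries of poly(A) RNA from BEAS-2B, H446 and A549 cells, with 3 control and 3 irradiated libraries per line. The labels call every line wild type and give X-rays at 10 Gy as the treatment of the irradiated libraries, with no separate treatment for the controls, and the harvest was 24 h after irradiation. BEAS-2B is a bronchial epithelial line immortalised with a hybrid virus that carries SV40 genes, A549 is a lung adenocarcinoma line, and H446 is a small cell lung cancer line. The labels do not say whether replicates were separate cultures, so every p-value measures the spread between these libraries, which may be technical. All values are FPKM, the normalised expression for transcript length and sequencing depth, and every fold or log2 fold change of a gene is of FPKM + 1, which understates changes of genes with low values.

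Double-strand breaks are sensed by ATM, which phosphorylates the histone H2AX beside the break. MDC1 binds that mark, TP53BP1 is recruited after it, and ATM activates the kinase CHEK2. Single-stranded DNA at stalled or resected ends is bound by ATR through its partner ATRIP. TOPBP1 switches ATR on, and CLSPN (Claspin) presents CHEK1 to it. CHEK1 and CHEK2 restrain the CDC25 phosphatases, while WEE1 places the inhibitory phosphate on CDK1 that CDC25 removes, so that cells with damage are held before mitosis. These proteins act mostly through phosphorylation, which transcript levels do not measure.

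The genes (Entrez identifier in brackets) lie on GRCh38 as GENCODE 29 places them. ATM (472) is at chr11:108222484-108369102, CHEK1 (1111) at chr11:125625136-125676255 and WEE1 (7465) at chr11:9573681-9593457, all on the plus strand. ATR (545) at chr3:142449235-142578826 and TOPBP1 (11073) at chr3:133598175-133662380 are on the minus strand of the chromosome that carries ATRIP (84126) at chr3:48446710-48467645 on its plus strand. CLSPN (63967) at chr1:35720218-35769967, MDC1 (9656) at chr6:30699807-30717889, TP53BP1 (7158) at chr15:43403061-43510728 and CHEK2 (11200) at chr22:28687743-28742422 are on minus strands. The values are per gene and cannot be placed on single exons.

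The labels were checked against marker genes and p53 target genes before any result. The epithelial keratins KRT7, KRT8 and KRT18 were high in every library, with lowest FPKM values of 302.4, 500.3 and 341.9, and made up most of the summed FPKM of 1306 to 3998 over 6 epithelial markers. Of the adhesion markers, CDH1 was at 0.31 to 0.74 in BEAS-2B and H446, and EPCAM was at 0.24 to 0.6 in A549. Over 6 immune and fibroblast markers the summed FPKM was 16.41 to 43.24, with CD68 at 7.67 to 33.47 and COL1A1 at 4.08 to 10.09, and in H446 also DCN at 3.06 to 4.36 and COL3A1 at 1.05 to 1.29. The leukocyte marker PTPRC was under 0.1 in every library. The neuroendocrine markers that mark many small cell lung cancers were near 0 in H446, where the summed FPKM of the 4 measured was 0.16 to 0.37, against 4.31 to 5.98 in the BEAS-2B controls. NEUROD1 and INSM1 were also on that list but were not found by Entrez identifier among the measured genes. The library labelled BEAS-2B 10 Gy replicate 2 stood apart. Against the control mean, its median log2 difference over 24 measured p53 target genes was 0.05, against 0.76 and 0.96 in the other irradiated BEAS-2B libraries and 0.95 to 0.98 in the irradiated A549 libraries. It is kept below under its label, and the BEAS-2B responses of the 10 genes and the medians of the gene lists are also given without it. In H446, where the irradiated libraries lay between -0.04 and 0.03, the p53 target genes give no check of the labels, but S phase genes separated the groups in every library.

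The promoters shown are those of CLSPN, which had the largest change of the 10, of CHEK1 and CHEK2, which moved in opposite directions, and of ATM and TOPBP1, whose responses differed most between BEAS-2B and A549. RefSeq (GRCh38.p14) gave a window of 250 bases before to 50 bases after a transcript start for 9 of the 10 genes, and none for WEE1. Of these windows, 70 bases before and 10 after the first listed start are printed 5′ to 3′ on the strand of the gene. Capitals mark a match to an E2F motif, searched on both strands as TTTCGCGC, TTTGGCGC, TTTCCCGC or TTTGCCGC, or to the CHR motif TTTGAA, also searched on both strands.
CLSPN, chr1:35769969-35770048, minus strand: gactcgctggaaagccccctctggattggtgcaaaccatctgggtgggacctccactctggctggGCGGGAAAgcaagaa
TOPBP1, chr3:133661932-133662011, minus strand: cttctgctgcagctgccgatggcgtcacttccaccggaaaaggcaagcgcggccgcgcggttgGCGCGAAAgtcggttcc
ATM, chr11:108222997-108223076, plus strand: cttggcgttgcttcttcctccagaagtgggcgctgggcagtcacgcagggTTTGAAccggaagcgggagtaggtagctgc
CHEK1, chr11:125626159-125626238, plus strand: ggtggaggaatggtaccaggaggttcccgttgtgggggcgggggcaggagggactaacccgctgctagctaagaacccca
CHEK2, chr22:28741811-28741890, minus strand: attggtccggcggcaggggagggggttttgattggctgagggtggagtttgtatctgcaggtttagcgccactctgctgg

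The CLSPN window held TTTCCCGC and the TOPBP1 window TTTCGCGC, both on the opposite strand and within 10 bases of the start. An E2F motif was found in 2 of the 9 genes, in 3.99% of 27305 genes with any such window, and in 3.31% of their 35116 windows. The CHR motif was found in ATM, 20 bases before the start, and in MDC1, 130 bases before it, in 18.2% of all genes with a window and in 15.2% of all windows. The CHEK1 and CHEK2 windows held neither. Each match is a description of these letters only.

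In unirradiated cells, TOPBP1 was the highest of the 10 genes in BEAS-2B and H446, and CHEK1 the highest in A549. The mean FPKM of TOPBP1, the activator of ATR, was 39.9 ± 1.78 (SD, n = 3) for BEAS-2B controls, 38.6 ± 0.597 for H446 and 13.3 ± 0.657 for A549. In BEAS-2B, TOPBP1 was followed by CHEK2 (20.1) and WEE1 (19.4), which overlapped between libraries, then by CHEK1 (15.9), MDC1 (15.4) and CLSPN (15.0), neighbours that also overlapped. TP53BP1 (10.9) and ATM (9.56) overlapped as well, with ATR (8.42) and ATRIP (5.5) below them. In H446, the order was TOPBP1, CHEK2, WEE1, CHEK1, MDC1, CLSPN, TP53BP1, ATR, ATRIP and ATM, and of these neighbours MDC1 and CLSPN overlapped. In A549, CHEK1 (21.4) was followed by TP53BP1, TOPBP1, ATM and CHEK2, at 14.1 to 12.2 with each overlapping the next, then WEE1 (9.78), the overlapping MDC1 (8.06) and ATR (7.05), ATRIP (3.90) and CLSPN (3.30).

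**Figure D1:**
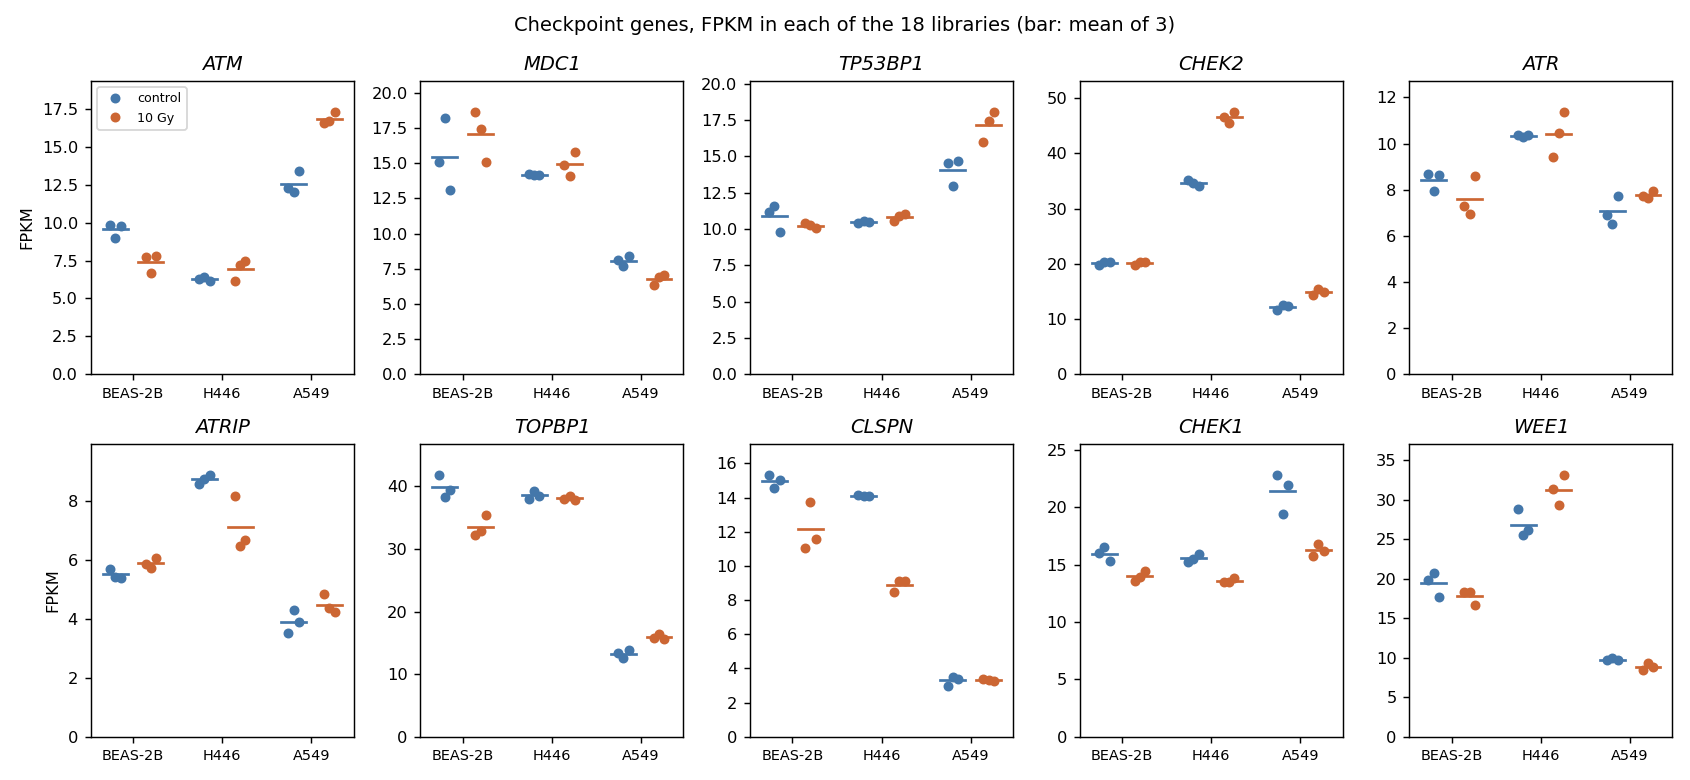
FPKM (vertical axes, each from 0) of the 10 checkpoint genes in the 18 libraries, by cell line (horizontal axis), with control libraries in blue, 10 Gy libraries in orange and a bar at the mean of 3. CLSPN fell to a mean of 8.89 in irradiated H446 and stayed near 3.3 in A549, and CHEK2 reached a mean of 46.6 in irradiated H446.

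The A549 controls carried less of most of these transcripts. Against the BEAS-2B controls, 10 of 10 genes differed in the limma fit of all 18 libraries (Benjamini-Hochberg adjusted p under 0.05), 7 of them lower, where 83.8% of all genes differed. CLSPN was lower by a log2 difference of -1.89 (SE 0.07) and TOPBP1 by -1.52 (SE 0.05), while CHEK1 (0.40), ATM (0.36) and TP53BP1 (0.35) were higher. ATR was lost without A549 control replicate 2 (-0.18, adjusted p = 0.05751). The A549 controls also had a lower level of S phase genes as a list, with 19 of 20 lower than in BEAS-2B and a median log2 difference of -1.66. Between H446 and A549 controls, 10 of 10 genes differed, against 83.2% of all genes, and 7 were higher in H446, from ATR (0.50) to CLSPN (1.81). Between H446 and BEAS-2B controls, 5 of 10 differed, against 81.1% of all genes: CHEK2 (0.76), ATRIP (0.58), WEE1 (0.45) and ATR (0.27) were higher in H446 and ATM (-0.54) was lower. These comparisons share their control libraries, and most genes differed in each, so the members' counts are near or below the background.

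After irradiation, the 10 genes did not move as a block. In A549, ATM, CHEK2, TP53BP1 and TOPBP1 rose and CHEK1 and MDC1 fell. In H446, CHEK2 and WEE1 rose and CLSPN, ATRIP and CHEK1 fell. In BEAS-2B none passed the threshold in the fit of that line alone. The limma test called 6 of 10 in A549, where 51.7% of 11993 genes were called, 5 of 10 in H446, where 38.4% of 11479 genes were called, and 0 of 10 in BEAS-2B, where 0% of 11734 genes were called. The median log2 fold change of the 10 was 0.14 in A549, 0.02 in H446 and -0.13 in BEAS-2B, against medians of -0.004, -0.03 and 0.002 over all genes tested. The called genes were therefore about as frequent among the 10 as among all genes, and the results below concern which gene moved and in which line. In H446, 1698 of all called genes were higher and 2709 lower, a share of 38.5% higher that became 49.8% after quantile normalization, 44.7% after rescaling to equal totals and 51.6% after removal of each library's trend on GC content.

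**Figure D2:**
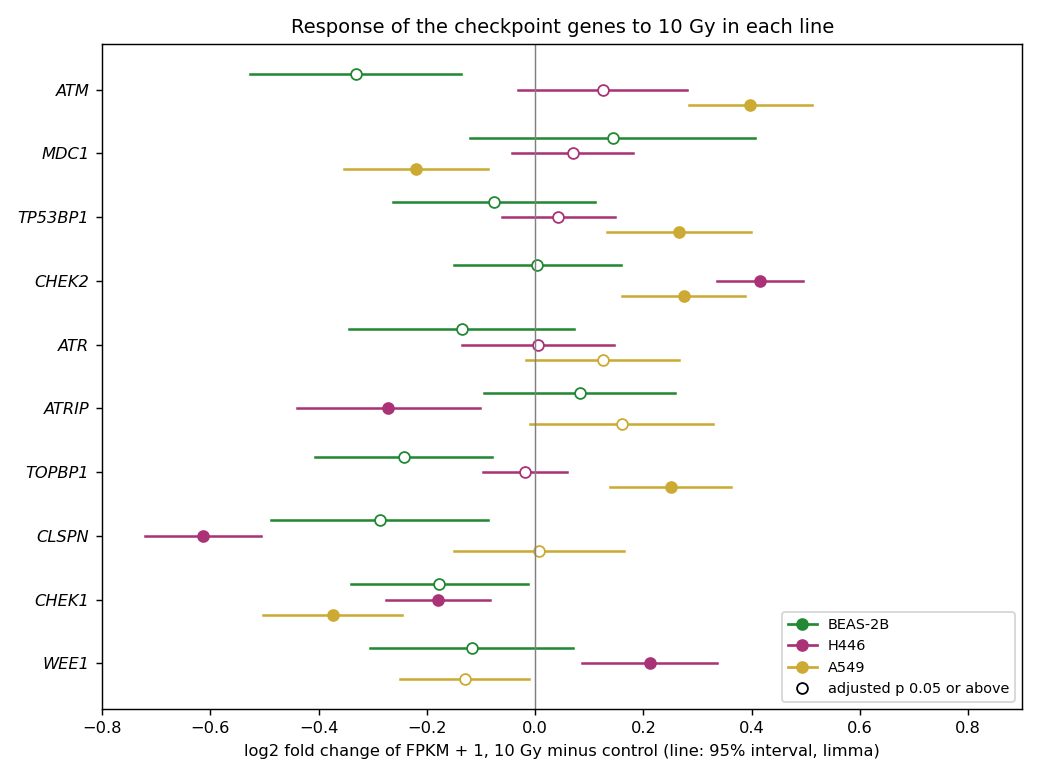
Log2 fold change of FPKM + 1 (horizontal axis, 10 Gy minus control) of each gene in each line, with its 95% interval from limma, filled where the adjusted p was under 0.05. CLSPN stands at -0.61 in H446 and 0.01 in A549, and ATM at 0.40 in A549 and -0.33, unfilled, in BEAS-2B.

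ATM, the kinase at the head of the double-strand break response, had an FPKM of 12.31, 12.02 and 13.40 in the A549 controls and 16.59, 16.72 and 17.29 at 10 Gy. The groups did not overlap, and ATM rose 1.32-fold (log2 0.40, SE 0.05, adjusted p = 6.096e-05, limma). In BEAS-2B, the controls were at 9.85, 9.02 and 9.81 and the irradiated libraries at 7.76, 6.66 and 7.79. Here every irradiated library was below every control, with a log2 fold change of -0.33 (SE 0.09, adjusted p = 0.2495, limma). In H446, the values were 6.28, 6.39 and 6.15 in the controls and 6.15, 7.21 and 7.50 at 10 Gy, which overlap at the lowest library (log2 0.13, SE 0.07, adjusted p = 0.1851). Without H446 10 Gy replicate 1 the H446 difference passed the threshold (log2 0.20, adjusted p = 0.02123). ATM overlaps NPAT and C11orf65, both on the opposite strand, and counting by strand is not stated, so reads of the overlapping stretches cannot be told apart.

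MDC1, the reader of phosphorylated H2AX, fell in A549, from 8.08, 7.67 and 8.42 in the controls to 6.37, 6.91 and 7.04. Its groups did not overlap (log2 -0.22, SE 0.06, adjusted p = 0.009415, limma), although in the fit of all 18 libraries the same fold change gave an adjusted p of 0.05786. In BEAS-2B, MDC1 was the most variable of the 10, with controls at 15.05, 18.21 and 13.06 and irradiated libraries at 18.61, 17.46 and 15.12. These groups overlap widely (log2 0.14, SE 0.12, adjusted p = 0.6168). The BEAS-2B libraries also differed in their trend on GC content, with a Spearman correlation of deviation and GC between -0.63 and 0.70 and with that trend removed the MDC1 fold change was 0.08 (adjusted p = 0.8386). In H446, MDC1 lay at 14.13 to 14.21 in the controls and 14.08 to 15.81 at 10 Gy (log2 0.07, SE 0.05, adjusted p = 0.2983). With the GC trend removed, the H446 difference was 0.15 and passed (adjusted p = 0.04101). The gene overlaps its antisense transcript MDC1-AS1.

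TP53BP1, the mediator that protects broken ends from resection, rose in A549. Its FPKM was 14.57, 12.98 and 14.71 in the controls and 15.97, 17.40 and 18.02 at 10 Gy, with no overlap (1.2-fold, log2 0.27, SE 0.06, adjusted p = 0.003087, limma). In BEAS-2B and H446, the level stayed between 9.81 and 11.61 in every library, with log2 fold changes of -0.08 (adjusted p = 0.7102) and 0.04 (adjusted p = 0.501). The 95% intervals, from -0.26 to 0.11 and from -0.06 to 0.15, still include small changes in these lines. TP53BP1 overlaps TUBGCP4 on the opposite strand.

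CHEK2, the effector kinase downstream of ATM, rose in both cancer lines. In H446, its FPKM was 35.22, 34.62 and 34.16 in the controls and 46.67, 45.59 and 47.43 at 10 Gy, a gap of more than 10 FPKM between the groups. The fold change was 1.33 (log2 0.42, SE 0.04, adjusted p = 1.777e-05, limma), and it stayed past the threshold under every alternative and without any 1 library. In A549, CHEK2 went from 11.60, 12.50 and 12.35 to 14.25, 15.50 and 14.96 (1.21-fold, log2 0.27, SE 0.05, adjusted p = 0.0009209), again without overlap. In BEAS-2B, the values were 19.70, 20.30 and 20.34 in the controls and 19.76, 20.38 and 20.39 at 10 Gy. The BEAS-2B difference was 0.00 on the log2 scale with a 95% interval from -0.15 to 0.16 (adjusted p = 0.982), which lies below the H446 estimate and its interval of 0.34 to 0.49. The annotation names 4 CHEK2 pseudogenes, and reads of 50 bases may be shared with them in ways the values do not show. CHEK2 also overlaps HSCB on the opposite strand.

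ATR, the kinase that responds to single-stranded DNA, did not pass the threshold in any line. Its FPKM in H446 was 10.38, 10.29 and 10.36 in the controls and 9.42, 10.47 and 11.35 at 10 Gy. The irradiated libraries spread to both sides of the controls (log2 0.01, SE 0.06, adjusted p = 0.953). In A549 the controls lay between 6.52 and 7.72 and the irradiated libraries between 7.63 and 7.94 (log2 0.13, SE 0.06, adjusted p = 0.127), and without A549 control replicate 3 the difference passed (adjusted p = 0.0386). In BEAS-2B the ranges were 7.93 to 8.68 and 6.93 to 8.59 (log2 -0.14, SE 0.09, adjusted p = 0.5533).

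ATRIP, the binding partner that carries ATR to coated single-stranded DNA, fell in H446. The controls were at 8.57, 8.74 and 8.86 and the irradiated libraries at 8.16, 6.46 and 6.65, without overlap (log2 -0.27, SE 0.08, adjusted p = 0.01765, limma). With the GC trend removed, the log2 fold change was -0.13 (adjusted p = 0.144), and the call was also lost without a filter on low values or without 1 of H446 control replicate 2 or 3 or H446 10 Gy replicate 2 or 3 (adjusted p from 0.05021 to 0.06094). In A549, ATRIP was at 3.52, 4.30 and 3.88 in the controls and 4.83, 4.36 and 4.22 at 10 Gy (log2 0.16, SE 0.08, adjusted p = 0.103), and without A549 control replicate 2 the difference passed (0.22, adjusted p = 0.04405). In BEAS-2B, all irradiated libraries (5.70 to 6.07) were just above all controls (5.39 to 5.68), with a log2 fold change of 0.08 (SE 0.08, adjusted p = 0.6734). ATRIP overlaps TREX1 on the same strand, so its values are uncertain where reads are shared.

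TOPBP1 rose in A549, from 13.40, 12.54 and 13.83 to 15.74, 16.47 and 15.64. The groups did not overlap (1.19-fold, log2 0.25, SE 0.05, adjusted p = 0.001517, limma). In BEAS-2B it was at 41.81, 38.31 and 39.48 in the controls and 32.23, 32.96 and 35.43 at 10 Gy, all irradiated libraries below all controls (log2 -0.24, SE 0.07, adjusted p = 0.2695). In H446 the libraries stood within 37.86 to 39.22, and the 95% interval of the log2 fold change, from -0.10 to 0.06, excludes a rise of the size seen in A549.

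CLSPN, the adaptor that hands CHEK1 to ATR at replication forks, showed the largest change of the 10 genes. In H446, its FPKM was 14.16, 14.08 and 14.11 in the controls and 8.48, 9.09 and 9.09 at 10 Gy. The controls agreed within 0.1 FPKM, and FPKM + 1 fell to 0.654 of the control, and the ratio of the mean FPKM was 0.629 (log2 -0.61, SE 0.05, adjusted p = 8.892e-06, limma), past the threshold under every alternative and without any 1 library. In A549, where the level was already low, the values were 3.0, 3.51 and 3.40 in the controls and 3.40, 3.30 and 3.26 at 10 Gy (log2 0.01, 95% interval -0.15 to 0.16, adjusted p = 0.9408). In BEAS-2B, the controls were at 15.31, 14.58 and 15.01 and the irradiated libraries at 11.06, 13.73 and 11.60. The irradiated library nearest the controls was replicate 2, the one whose p53 target genes were at the control level (log2 -0.29, SE 0.09, adjusted p = 0.2766). The S phase list moved with CLSPN in H446, where 20 of 20 genes fell with a median log2 fold change of -0.72. Among them, the replicative helicase subunit MCM5 fell by 1.33 and the cyclin CCNE2 by 1.2 on the log2 scale. The part of S phase content in the CLSPN value was not tested, and in bulk RNA fewer cells of a phase and less RNA per cell cannot be told apart. CLSPN overlaps an antisense transcript.

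CHEK1, the effector kinase of the ATR arm, fell in both cancer lines. In A549, it went from 22.78, 19.41 and 21.89 to 15.70, 16.80 and 16.16 (0.771-fold, log2 -0.37, SE 0.06, adjusted p = 0.0002335, limma). In H446, it went from 15.25, 15.49 and 15.88 to 13.51, 13.49 and 13.80 (0.883-fold, log2 -0.18, SE 0.04, adjusted p = 0.008504). In BEAS-2B, the values were 15.96, 16.50 and 15.32 and then 13.60, 13.88 and 14.44, a log2 fold change of -0.18 (SE 0.07) with an adjusted p of 0.3801 that did not pass. In each line, every irradiated library was below every control. The difference in response did not pass the threshold between any pair of lines (adjusted p = 0.06084, 0.06242 and 0.9834, limma), although with the GC trend removed the A549 response was the lower one against BEAS-2B (log2 difference 0.26, adjusted p = 0.009963). Without A549 control replicate 2 the A549 response was lower than that of H446 (-0.26, adjusted p = 0.01058) and than that of BEAS-2B (difference 0.26, adjusted p = 0.01238), and the latter also passed without BEAS-2B control replicate 2 (0.22, adjusted p = 0.04405). CHEK1 overlaps STT3A on the same strand and ACRV1 on the opposite strand.

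WEE1, the kinase that holds CDK1 inactive, rose in H446, from 28.82, 25.59 and 26.13 to 31.33, 29.27 and 33.11 (1.16-fold, log2 0.21, SE 0.06, adjusted p = 0.01394, limma). The gap between the groups was under 1 FPKM. With the GC trend removed, the log2 fold change was 0.14 (adjusted p = 0.08205), and the call was lost without H446 control replicate 2 (0.05958) or H446 10 Gy replicate 3 (0.05224). In A549, WEE1 was at 9.71, 9.95 and 9.67 in the controls and 8.43, 9.29 and 8.83 at 10 Gy, without overlap (log2 -0.13, SE 0.05, adjusted p = 0.06331). This difference passed with the GC trend removed (-0.13, adjusted p = 0.04975) and without A549 10 Gy replicate 2 (-0.16, adjusted p = 0.04437). In BEAS-2B it lay at 17.65 to 20.76 and 16.64 to 18.38 (log2 -0.12, adjusted p = 0.5687).

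GC content moved with the groups in H446. The Spearman correlation of a library's deviation with GC content over genes was 0.35 to 0.46 in the H446 controls and -0.50 to -0.11 in the irradiated libraries, while in A549 the groups spanned -0.10 to 0.17 and -0.13 to 0.14, and in BEAS-2B -0.63 to 0.01 and -0.31 to 0.70. ATRIP, which fell in H446, has a GC content of 58.7% in its longest transcript, and WEE1, which rose, has 37.9%, against a median of 49.0% over all genes. CHEK2 (49.6%), CLSPN (44.8%) and CHEK1 (41.5%) kept their H446 calls with the GC trend removed. In BEAS-2B, that removal moved WEE1 from -0.12 to -0.01, ATR from -0.14 to -0.05, CHEK1 from -0.18 to -0.11 and ATRIP from 0.08 to -0.02 on the log2 scale, with ATM then at -0.24, CLSPN at -0.26 and TOPBP1 at -0.19 (adjusted p from 0.4605 to 0.984 over the 10 genes).

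The genes whose irradiated libraries all lay beyond all controls were also counted. In A549 there were 7 of 10, 4 above and 3 below, against 58.5% of all genes. In H446 there were 5 of 10, 2 above and 3 below, against 50.3% of all genes. In BEAS-2B there were 5 of 10, with ATRIP above and CHEK1, TOPBP1, ATM and CLSPN below, against 16.4% of all genes. An exact permutation test of 1 gene with 3 against 3 libraries cannot give a p below 0.10.

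The BEAS-2B count of 0 depended on the fit. At an unadjusted p under 0.05, limma named 4 of the 10 in BEAS-2B (ATM, CLSPN, TOPBP1 and CHEK1, each lower) and 1446 genes in all, a share of 12.3%. With the library labelled BEAS-2B 10 Gy replicate 2 left out, the fit of the line alone called 233 genes (1.99%), and of the 10 it called CLSPN, at a log2 fold change of -0.37 (SE 0.08, adjusted p = 0.04759). The other log2 fold changes were then -0.27 for ATM, -0.23 for TOPBP1, -0.17 for CHEK1, -0.14 for WEE1, -0.08 for ATR and for TP53BP1, 0.00 for CHEK2, 0.10 for ATRIP and 0.12 for MDC1, with adjusted p from 0.2181 to 0.9947. In the fit of all 18 libraries, which shares 1 estimate of the spread over the lines, 842 genes (6.44%) were called and ATM (adjusted p = 0.01236), TOPBP1 (0.01049) and CLSPN (0.01954) were lower. The same fit without that library called 984 genes (7.54%), with ATM (0.02684), TOPBP1 (0.01233) and CLSPN (0.0006603) lower again. The estimates of ATM, TOPBP1, CLSPN and CHEK1 were negative with and without BEAS-2B 10 Gy replicate 2. The fit of the line alone and the fit of 18 libraries give the same estimates by design and differ in the spread, so they are not separate evidence. CHEK2 stayed between -0.01 and 0.02 on the log2 scale whichever BEAS-2B library was left out.

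CHEK2 and CHEK1 moved apart, and their ratio within a library does not depend on the scaling of that library. The ratio can still move with a trend on GC content. This ratio was chosen after the values of both genes had been seen. CHEK2 FPKM divided by CHEK1 FPKM was 2.31, 2.23 and 2.15 in the H446 controls and 3.45, 3.38 and 3.44 at 10 Gy. In A549 the ratio was 0.509, 0.644 and 0.564 without and 0.908, 0.923 and 0.926 with irradiation, so CHEK1 remained the higher transcript. In BEAS-2B it was 1.23, 1.23 and 1.33 and then 1.45, 1.47 and 1.41. No irradiated library overlapped the controls of its line, and the ratio changed 1.53-fold in H446, 1.61-fold in A549 and 1.14-fold in BEAS-2B, or 1.13-fold without 10 Gy replicate 2. With the GC trend removed, the log2 fold changes of CHEK2 and CHEK1 were 0.45 and -0.23 in H446 and 0.27 and -0.38 in A549. In BEAS-2B they were then -0.03 and -0.11, against 0.00 and -0.18 before. A two-sided exact permutation test of the ratio gave p = 0.10 in each line, the smallest that 3 against 3 libraries can give. The lack of overlap already fixes this value, so the test adds nothing to it. BEAS-2B 10 Gy replicate 2, with its p53 target genes at the control level, had the highest ratio of its line. It also had the highest Spearman correlation of deviation with GC content of all libraries (0.70), and the part of that trend in its ratio was not tested.

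**Figure D3:**
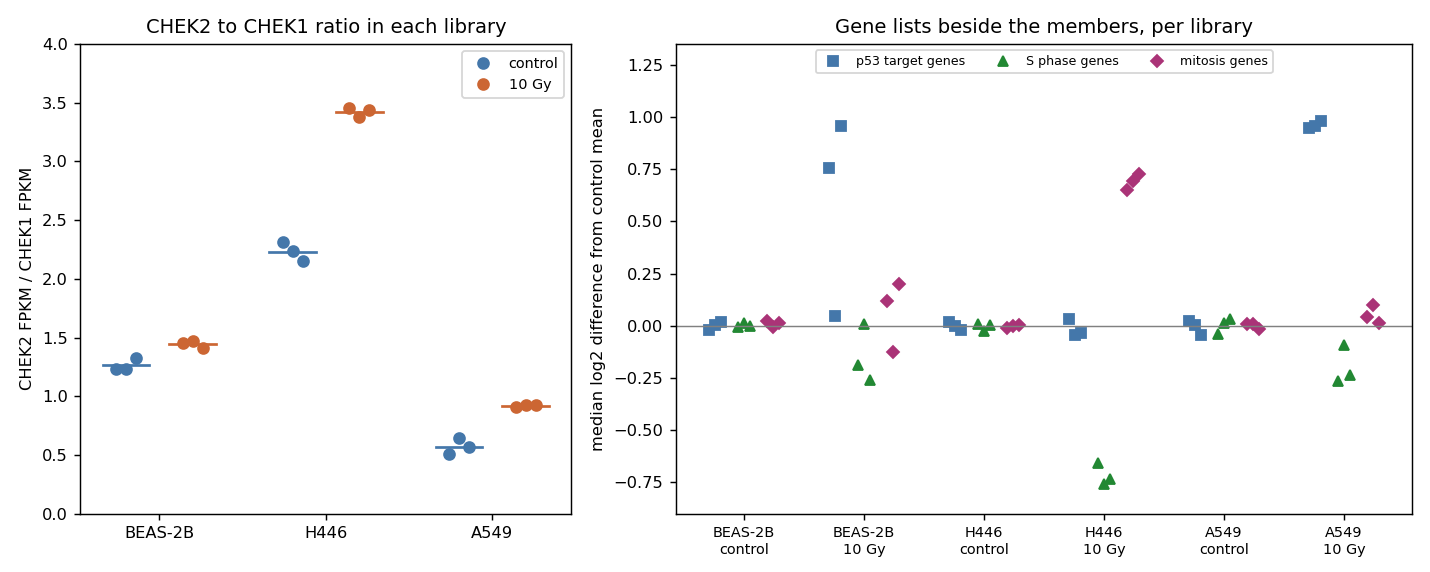
Left, CHEK2 FPKM divided by CHEK1 FPKM (vertical axis from 0) in each library, by line, with a bar at the mean of 3 (controls blue, 10 Gy orange). Right, how far each library lay from the control mean of its line on the log2 scale, as the median over p53 target genes (squares), S phase genes (triangles) and mitosis genes (diamonds), where H446 moved in S phase and mitosis genes and A549 in p53 target genes.

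The responses were then compared between lines in the fit of all 18 libraries, each comparison sharing 1 line with the others. Between BEAS-2B and A549, 6 of 10 responses differed, against 30.6% of all genes. ATM differed most, with a response lower in BEAS-2B by a log2 difference of -0.73 (SE 0.10, adjusted p = 3.623e-05, limma), followed by TOPBP1 at -0.49 (SE 0.07, adjusted p = 4.853e-05). Both held under every alternative. Between BEAS-2B and H446, 6 of 10 differed, against 22.7% of all genes, and CHEK2 at -0.41 (SE 0.06, adjusted p = 0.0004385) had the smallest p. MDC1, at 0.36 for BEAS-2B minus A549 (adjusted p = 0.03724), was lost with the GC trend removed, with equal totals, without a filter, or with any 1 of 8 libraries left out (adjusted p up to 0.1059). CLSPN, at -0.29 for the same lines, was lost with quantile normalization (adjusted p = 0.07126) or with any 1 of 4 libraries left out (up to 0.07831). ATR differed between these lines without BEAS-2B 10 Gy replicate 3 (-0.34, adjusted p = 0.01244) or A549 control replicate 3 (-0.32, adjusted p = 0.04035), and 4 to 7 of the 10 differed with 1 library left out. Without BEAS-2B 10 Gy replicate 2, 5 of the 6 responses still differed between BEAS-2B and A549, with MDC1 lost (0.35, adjusted p = 0.06318), and all 6 between BEAS-2B and H446, where CLSPN (0.24, adjusted p = 0.04968) and TOPBP1 (-0.21, adjusted p = 0.04995) lay just inside the threshold. With the GC trend removed, 3 of the 6 between BEAS-2B and H446 remained past the threshold, namely ATM, CHEK2 and CLSPN. Between A549 and H446, 5 of 10 differed, against 34.6% of all genes. CLSPN differed most there, at 0.62 (SE 0.10, adjusted p = 9.179e-05), ATRIP by 0.43 and TOPBP1 by 0.27, and these held under every alternative. The A549 to H446 difference of ATM was 0.27 (adjusted p = 0.04133) and that of WEE1 -0.34 (adjusted p = 0.008481). The ATM difference was lost with any 1 of 9 libraries left out (adjusted p up to 0.1147, without H446 10 Gy replicate 1), with a pseudocount of 0.1, with equal totals or without a filter, and that of WEE1 with the GC trend removed. Other genes passed between A549 and H446 under some settings, and 4 to 7 of the 10 did with 1 library left out. With the GC trend removed, MDC1 (-0.36, adjusted p = 0.02271), CHEK2 (-0.18, adjusted p = 0.02272) and TP53BP1 (0.23, adjusted p = 0.04186) passed. MDC1 and TP53BP1 also passed with quantile normalization (adjusted p = 0.03774 and 0.0494) and without BEAS-2B control replicate 2 or 3, and TP53BP1 without A549 10 Gy replicate 1 (0.27, adjusted p = 0.03498).

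The gene lists that mark the state of the cells moved beside these results. Of all genes tested, 25.3% rose and 26.4% fell in A549, and 14.8% rose and 23.6% fell in H446. In A549, 23 of 25 p53 target genes rose and 1 fell (median log2 0.96), with the CDK inhibitor CDKN1A at 1.54 and the p53 ligase MDM2 at 1.76. In H446, 3 of 24 rose and 3 fell (median 0.00), CDKN1A was at -0.13 (adjusted p = 0.06423) and MDM2 at -0.11 (adjusted p = 0.2001). In H446, 20 of 20 mitosis genes rose (median 0.68), with cyclin CCNB2 at 0.80 and topoisomerase TOP2A at 0.71. In A549, 11 of 20 S phase genes fell and 4 rose (median -0.18), with MCM5 at -0.72 and CCNE2 at -0.18 (adjusted p = 0.1459). Of the A549 mitosis genes, 7 of 20 rose and 3 fell (median 0.06), with TOP2A at 0.30 and CCNB2 at 0.11 (adjusted p = 0.1173). In BEAS-2B, 0 genes of these lists passed in the fit of the line alone. At an unadjusted p under 0.05, limma named 18 of 24 p53 target genes, 4 of 20 S phase genes and 5 of 20 mitosis genes there, against 12.3% of all genes. The median was 0.57 over the p53 target genes, with CDKN1A at 1.56 and MDM2 at 1.13, -0.13 over the S phase genes and 0.05 over the mitosis genes. Without 10 Gy replicate 2 these medians were 0.85, -0.24 and 0.14, with CDKN1A at 2.2 and MDM2 at 1.78, and in that library alone they were 0.05, 0.01 and -0.13. The part of these states in the checkpoint genes' values was not tested.

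The wider pathway was described with 32 other checkpoint genes, all of which passed the filter in every line. Values of single pathway genes with the GC trend removed are not given here, although that trend moved with the groups in H446. In H446, 6 of 32 rose and 12 fell (median log2 -0.09), where 38.4% of all genes were called. In A549, 8 rose and 10 fell (median -0.03), where 51.7% of all genes were called. In BEAS-2B, 0 passed in the limma fit of that line, 10 had an unadjusted p under 0.05 (12.3% of all genes did) and the median was -0.10, or -0.12 without 10 Gy replicate 2, with 7 past the threshold in the fit of all 18 libraries, which called 6.44% of all genes. Without 10 Gy replicate 2, the fit of BEAS-2B alone called 3 of the 32, all higher, and 1.99% of all genes. Among the 9 genes of the clamp, clamp loader, RPA and ETAA1, which act with TOPBP1 and ATRIP to switch ATR on, 1 rose and 4 fell in H446, and 3 rose and 3 fell in A549. Of the 3 genes of the MRN complex, which brings ATM to breaks, 1 fell in H446, and 1 rose and 1 fell in A549. Of the 6 genes of the chromatin beside the break, 2 fell in H446 and 3 in A549.

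**Figure D4:**
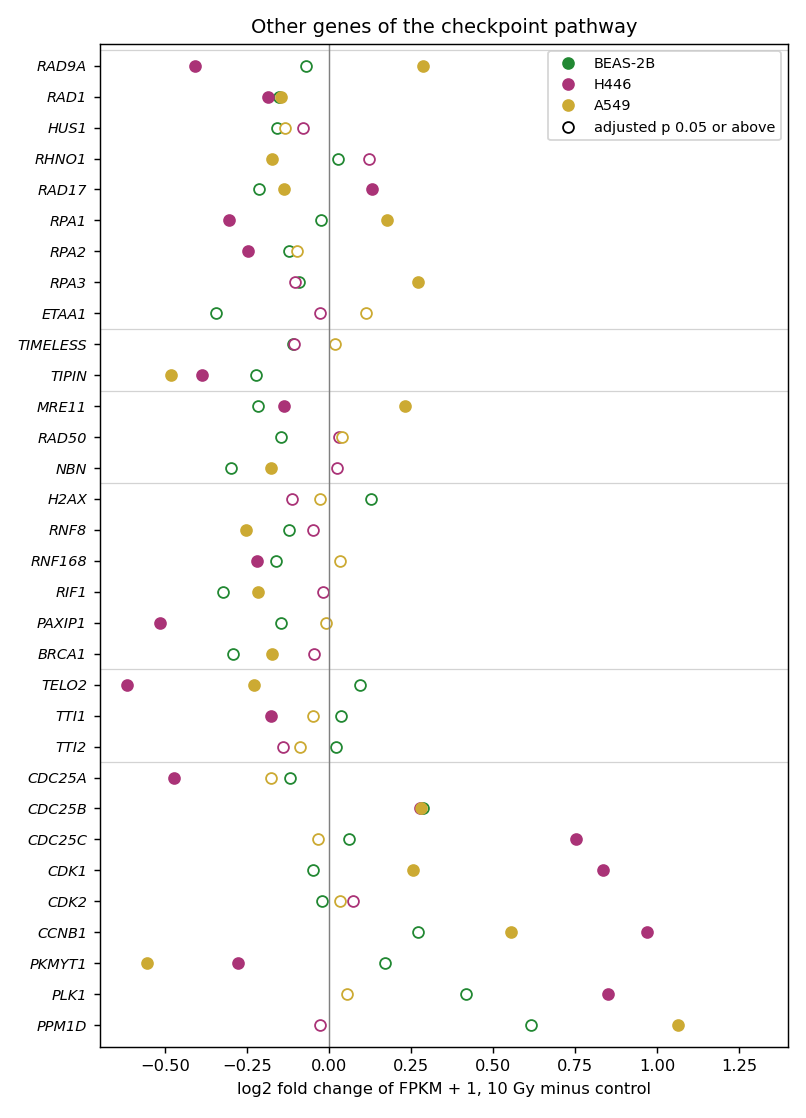
Log2 fold change of FPKM + 1 (horizontal axis, 10 Gy minus control) of 32 other checkpoint genes in each line, grouped from top to bottom by ATR activation, partners of CLSPN, MRN complex, chromatin beside the break, kinase assembly, and targets and opponents of the kinases, filled where the adjusted p was under 0.05. The cell cycle targets CCNB1, CDK1 and CDC25C lie to the right in H446, from 0.75 to 0.97.

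Of these genes, PAXIP1, a chromatin-bound partner of TP53BP1, fell in H446 from a mean FPKM of 9.0 ± 0.424 to 5.99 ± 0.401 (SD, n = 3). Its log2 fold change was -0.52 (adjusted p = 0.0001844, limma), against -0.01 in A549 (adjusted p = 0.8924) and -0.15 in BEAS-2B (adjusted p = 0.4566). TELO2, part of the complex that matures ATM and ATR, fell in H446 from 9.83 ± 0.545 to 6.08 ± 0.767 (log2 -0.62, adjusted p = 0.0002413) and in A549 by 0.23 on the log2 scale (adjusted p = 0.03596). In BEAS-2B, TELO2 was at 0.09 (adjusted p = 0.7492), and without 10 Gy replicate 2 at -0.02, with PAXIP1 at -0.19.

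Of 9 targets and opponents of the checkpoint kinases, 5 rose and 2 fell in H446, and 4 rose and 1 fell in A549. In H446, CDK1, the mitotic kinase, went from 88.8 ± 2.98 to 159 ± 3.27 FPKM (SD, n = 3, log2 0.83, adjusted p = 1.583e-07, limma), and its cyclin CCNB1 from 95.8 ± 1.58 to 188.6 ± 4.75 (log2 0.97). The phosphatase CDC25C (log2 0.75) and the kinase PLK1 (log2 0.85), which promotes recovery from the checkpoint, rose as well. In A549, CCNB1 rose by 0.55 and CDK1 by 0.25 on the log2 scale, while CDC25C was at -0.04 (adjusted p = 0.676) and PLK1 at 0.05 (adjusted p = 0.322). PKMYT1, a relative of WEE1 with the same target, fell in A549 by 0.56 and in H446 by 0.28 on the log2 scale. PPM1D, a p53-induced phosphatase that opposes ATM and CHEK2, rose in A549 from 8.59 ± 0.336 to 19.0 ± 0.603 FPKM (log2 1.06, adjusted p = 1.466e-08). In H446, PPM1D was at -0.03 (adjusted p = 0.7182). In BEAS-2B the irradiated libraries spanned 7.79 to 16.26 (log2 0.61, adjusted p = 0.2892, and 0.92 without replicate 2). In BEAS-2B the other targets named here were between -0.05 (CDK1) and 0.42 (PLK1, adjusted p = 0.2411), and none passed in the fit of that line with all its libraries. Without 10 Gy replicate 2 they were between -0.01 (PKMYT1) and 0.47 (PLK1), with CDK1 at 0.09, and 3 of the 32 pathway genes were called, as given above. The mitosis list rose beside these targets in H446 as given above, and its part was not tested.

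TIPIN and RAD9A were singled out after their values were seen. TIPIN, which works with CLSPN at replication forks, fell in H446 (log2 -0.39, adjusted p = 0.0005171, limma) and in A549 (-0.48, adjusted p = 3.546e-05), and was at -0.23 in BEAS-2B (adjusted p = 0.3212, and -0.26 without 10 Gy replicate 2). RAD9A, a subunit of the clamp that TOPBP1 binds, fell in H446 (-0.41, adjusted p = 0.0008403) and rose in A549 (0.29, adjusted p = 0.002865), a difference of 0.69 between the responses (SE 0.14, adjusted p = 0.0009811). In BEAS-2B, RAD9A was at -0.07 (adjusted p = 0.8228), and at -0.20 without 10 Gy replicate 2. For TIPIN and RAD9A too, the part of the GC trend in the H446 values was not tested.

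Across the 18 libraries, with each line centred on its own mean, the 10 genes were compared with 10460 genes by Pearson's r, as a description. CHEK1 was most like USP1 (0.968), followed by RMI1 and DEK. CHEK2 was most like SHCBP1 (0.969), followed by APOBEC3B and NBPF14. CLSPN was most like PAXIP1 (0.946), FAM111B and FEN1, the last a member of the S phase list. ATM was most like SF3B1 (0.95), MANEA and ACSL4, TOPBP1 like ARRDC3, ATAD5 and GOLGA8A, and TP53BP1 like CAPRIN1, ROBO1 and ATRN. ATR was most like AHI1, SMCHD1 and GK5, MDC1 like SNRNP200 (0.968), COL4A1 and CTNNA1, and WEE1 like ADAM9, YEATS2 and SAV1. Among the 10 genes, ATM and TOPBP1 had the highest r (0.871) and CHEK1 and CHEK2 the lowest (-0.738). The points share their treatment, depth and base composition.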

How the data were processed

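Total RNA was poly(A)-selected, sequenced as single-end reads of 50 bases, and deposited by the authors as 1 table of normalised values. These deposited values were treated as FPKM, a unit inferred from their behaviour. The submitters' processing notes name HISAT2 2.0.4, Bowtie2 2.2.5, RSEM 1.2.12 and the build hg38, with no role. Groups and replicate numbers came from the labels, and columns were matched to samples by title.

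The depth in reads is unknown, so no counting interval is given. Relative depth read from steps between low values was 0.889 to 1.06, and total FPKM was 461255 to 529936 per library. Identical values made up at most 3.1% between replicates. Of 18475 identifiers, 18181 matched RefSeq names.

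Values were transformed to log2(FPKM + 1), a pseudocount of 1. Genes that reached an FPKM of 1 in 3 or more of the 6 libraries of a line were tested with limma 3.58.1 (lmFit, eBayes with a trend) in R 4.3.3, each line alone, at a Benjamini-Hochberg adjusted p under 0.05. Control levels and response differences came from 1 fit of 18 libraries with 6 group means over 13071 genes. The 10 genes, the lists and the tests were chosen with earlier results of these data known. The genes named are the 10, the other pathway genes called with an absolute log2 fold change of at least 0.5, a pair per state list, and the 3 most alike genes of each of the 10, except that those of ATRIP are not reported here, and TIPIN and RAD9A, named outside this rule after their values were seen. Alternatives were quantile normalization, equal totals, a loess correction (span 0.5) for GC content, a pseudocount of 0.1, no filter, no trend, a replicate block, 1 fit of 18 libraries, and each library left out. The fit of 18 libraries without BEAS-2B 10 Gy replicate 2 was added after the data were seen. On simulated data with a log2 change of 1, limma recovered 95.4% of the changed genes in BEAS-2B (11735 genes), 100% in H446 (11466) and 99.0% in A549 (11960), with 11, 13 and 9 other calls. That change is larger than any response of the 10 genes to 10 Gy, of which the largest was -0.61 (CLSPN in H446). The simulated noise was independent between genes, with no GC trend and no outlying library. The shares are therefore not the power for these genes, and in the measured BEAS-2B libraries CDKN1A at 1.56 was not called. Positions are those of GENCODE 29 on GRCh38. Protein sequences were not used here.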

Additional observations from a re-analysis of the deposited data

Results flagged for a closer look

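The response of 17 gene and line combinations differed between lines by the interaction term of the limma fit of all 18 libraries (adjusted p under 0.05), each given as a difference of log2 fold changes. The comparisons share libraries, and no explanation was tested.

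ATM responded lower in BEAS-2B than in H446 by -0.46 and than in A549 by -0.73, and higher in A549 than in H446 by 0.27. The last of these was lost with equal totals (adjusted p = 0.0833), a pseudocount of 0.1 (0.06349), no filter (0.0536), or with any 1 of H446 control replicates 1 to 3, H446 10 Gy replicate 1, A549 control replicates 1 and 2 and A549 10 Gy replicates 1 to 3 left out (0.05667 to 0.1147). TOPBP1 was at -0.22, -0.49 and 0.27 in the same comparisons. Its difference between BEAS-2B and H446 was lost with the GC trend removed (-0.15, adjusted p = 0.1049) or without 1 of BEAS-2B control replicate 1, BEAS-2B 10 Gy replicate 1, H446 control replicates 1 and 3 and H446 10 Gy replicates 2 and 3 (0.05132 to 0.08347). CLSPN was at 0.33 for BEAS-2B minus H446, -0.29 for BEAS-2B minus A549 and 0.62 for A549 minus H446. The BEAS-2B minus A549 difference of CLSPN was no longer past the threshold with quantile normalization (-0.24, adjusted p = 0.07126) or without BEAS-2B control replicate 1, BEAS-2B 10 Gy replicate 1, A549 control replicate 1 or A549 10 Gy replicate 1 (adjusted p from 0.05368 to 0.07831). CHEK2 responded lower in BEAS-2B than in H446 by -0.41 and than in A549 by -0.27. ATRIP responded higher than in H446 by 0.35 in BEAS-2B and by 0.43 in A549. The BEAS-2B value of ATRIP was lost with quantile normalization (0.28, adjusted p = 0.06365), with the GC trend removed (0.13, adjusted p = 0.4468), or without 1 of BEAS-2B control replicate 3, H446 control replicates 2 and 3 and H446 10 Gy replicates 2 and 3 (0.05015 to 0.07385). WEE1 responded lower than in H446 by -0.33 in BEAS-2B and by -0.34 in A549. Both WEE1 values were lost with the GC trend removed (-0.16, adjusted p = 0.3818, and -0.28, adjusted p = 0.06353), and that of BEAS-2B without H446 control replicate 2 (0.05066) or H446 10 Gy replicate 3 (0.05633). For BEAS-2B minus A549, MDC1 was at 0.36 and TP53BP1 at -0.34. That of MDC1 was lost with the GC trend removed (adjusted p = 0.05523), with equal totals (0.06148), without a filter on low values (0.06175), and with any 1 of 8 libraries left out (up to 0.1059, without BEAS-2B control replicate 3). The other libraries were BEAS-2B control replicate 1, BEAS-2B 10 Gy replicates 1 and 2, A549 control replicates 1 and 3, and A549 10 Gy replicates 1 and 2.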

How the results depend on the processing

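Of 90 values of the 10 genes over 9 comparisons, 53 passed the threshold. Of these, 42 stayed past it under every alternative and with any 1 library left out, 11 were lost at least once and 0 changed sign. The 53 include differences between unirradiated lines, where 81.1% to 83.8% of all genes differed. Among the 11 lost, ATR in A549 minus BEAS-2B controls was such a difference, and the rest were responses to 10 Gy or differences of responses. The limits are the unknown read depth, 3 libraries per group, the inferred unit, and BEAS-2B 10 Gy replicate 2, whose p53 target genes were at the control level. The causes of the changes below were not tested.

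In BEAS-2B, the 0 genes called in all became 1 without a filter on low values, 439 with the replicate block, 842 in 1 fit of 18 libraries and 984 in that fit without 10 Gy replicate 2, and 0 to 233 with 1 library left out. The 0 of the 10 checkpoint genes became 1 with the replicate block (ATM, adjusted p = 0.03635), 3 and 3 in the fits of 18 libraries, and 0 to 1 with 1 library left out. The 0 of 32 pathway genes became 6 with the block, 7 and 6 in the fits of 18 libraries, and 0 to 3. In H446, 3 to 6 of the 10 were called with 1 library left out, with 3 without control replicate 2 or 10 Gy replicate 3. The 6 response differences between BEAS-2B and H446 became 3 with the GC trend removed, and 3 to 6 with 1 library left out, 3 without H446 10 Gy replicate 3.

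No pairing by replicate number was assumed, since same-numbered libraries deviated together with r of -0.125 to 0.324 in BEAS-2B, 0.0102 to 0.19 in H446 and -0.0993 to 0.01 in A549. Beside ATM in BEAS-2B, the block moved MDC1 past the threshold in the A549 minus H446 response (-0.29, adjusted p = 0.03623), and changed no other call among the 10 genes.

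Only values that had not passed the threshold changed sign. With the GC trend removed, ATR in H446 was at -0.0536, ATRIP in BEAS-2B at -0.0217, CHEK2 in BEAS-2B at -0.0257 and the MDC1 response of BEAS-2B minus H446 at -0.0548. With quantile normalization, CHEK2 in BEAS-2B was at -0.00913, CLSPN in A549 at -0.0325, the CHEK1 response of BEAS-2B minus H446 at -0.0192, the WEE1 response of BEAS-2B minus A549 at -0.0081 and TOPBP1 in H446 minus BEAS-2B controls at 0.0139. With equal totals, that CHEK1 response was at -0.00204 and TOPBP1 in H446 at 0.00186. CHEK2 in BEAS-2B was at -0.00264 in the fit of 18 libraries without 10 Gy replicate 2. With 1 library left out, the ranges were -0.0532 to 0.0693 for ATR in H446, -0.0229 to 0.0275 for the CHEK1 response of BEAS-2B minus H446, -0.00987 to 0.0186 for CHEK2 in BEAS-2B, -0.0444 to 0.0421 for CLSPN in A549, -0.0504 to 0.0609 for the WEE1 response of BEAS-2B minus A549, and -0.033 to 0.192 for the MDC1 response of BEAS-2B minus H446. In H446 minus BEAS-2B controls they were -0.211 to 0.0141 for MDC1, which passed without BEAS-2B control replicate 3, and -0.111 to 0.000413 for TP53BP1.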
